A study of Mus musculus with 3 samples.

Results

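The first day of RANKL was read from 2 of the 3 arrays of the series, the culture harvested at 24 h against the culture harvested at 0 h, across all 12393 genes named by a probe set with a single gene symbol. Both cultures came from bone marrow of C57/BL6 mice and had spent 3 days in M-CSF (human, 50 ng/ml), the cytokine on which macrophages depend for growth. Human RANKL at 150 ng/ml was then present for 24 h in one culture and for 0 h in the other. The labels call the 0 h cells a precursor and the 24 h cells a differentiating precursor, and do not say how many mice gave marrow or whether they were pooled. With 1 array per time no difference below has a replicate check, and no culture was kept for 24 h without RANKL, so RANKL and a further day in culture cannot be told apart. The 72 h array, of cells the labels call osteoclasts, is given as a value beside the others and enters no comparison.

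RANKL binds its receptor RANK on macrophage-like precursors, and the receptor recruits TRAF adaptors that switch on NF-kB, MAP kinases and AP-1 factors. These lead to the transcription factor NFATc1, to a loss of many macrophage functions, to fusion and finally to bone resorption. The first day lies before most fusion, and precursors commonly grow and divide in it. Genes of ribosome building, metabolite synthesis, mitochondria, signalling, transport and matrix are therefore described here, by what their products do, rather than the usual osteoclast, macrophage and cell cycle genes.

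Values are scaled signals, which are microarray intensities centred on each array's median, and all differences are relative to that median. Where 3 signals stand together in parentheses, they are those at 0, 24 and 72 h in that order, and where 2 are joined by "to", those at 0 h and 24 h. The deposited 24 h values lay 0.73 above the 0 h values at the median on the log2 scale. A floor was set at a signal of 29.6, the 40th percentile over gene probe sets, and 8439 genes were measured, meaning above the floor on at least 1 of these 2 arrays; the rest were under it on both and have no value here. At 0 h 7990 genes were above the floor and at 24 h 7904, and the ratio of the Gapdh control signals from the 3′ and 5′ ends, a mark of RNA integrity, was 1.19 and 0.975. A gene is called higher or lower when its signals differed at least 2-fold. The technical error, from genes with 2 probe sets, was an SD of 0.41 on the log2 scale, or a factor of 1.33 (2727 genes), and it leaves out the spread between cultures. By this rule 1112 genes were higher, which is 13.2% of those measured, and 778 were lower, which is 9.22%. The median difference over all measured genes was 0.12 on the log2 scale. Higher calls made up 58.8% of all calls, against 46.9% after quantile normalization, 42.2% after scaling to a trimmed mean, 64.7% after scaling to the hybridization controls and 91.3% on the deposited scale. Where a gene had another measured probe set, 270 of 459 genes higher (58.8%) and 176 of 300 genes lower (58.7%) had one past 2-fold the same way.

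**Figure D1:**
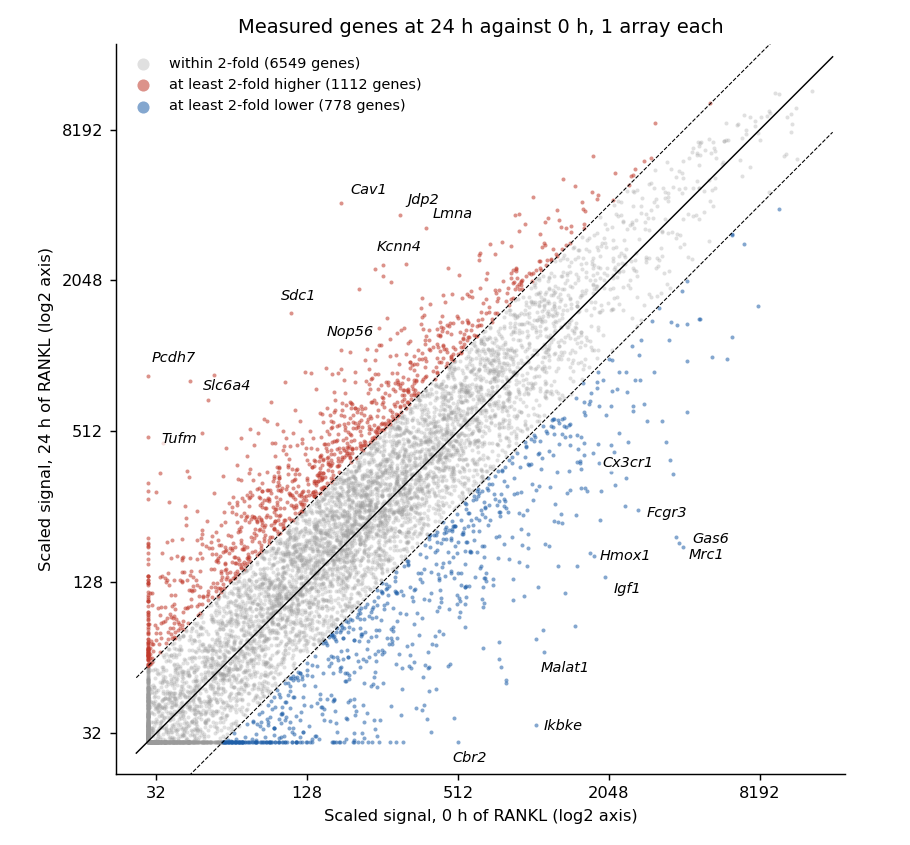
Scaled signal at 24 h against that at 0 h for the 8439 measured genes, each a point, on log2 axes with 1 array per time; values under the floor are drawn at 29.6. The solid line marks equal signals and the dashed lines 2-fold, with 1112 genes in red above and 778 in blue below; Cav1 (a signal of 175 to 4171) and Ikbke (1051 to 34.5) lie among the farthest points.

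The labels were checked against marker genes. Of 10 measured osteoclast markers, 6 were higher and 0 lower, with Ocstamp, a fusion protein, going from under the floor to 318, while Itgb3, Clcn7, Tcirg1 and Oscar stayed within 2-fold and Calcr was under the floor on both arrays. Of 10 macrophage markers, 7 were lower and 0 higher. Cd68, Csf1r and Lyz2 were the members within 2-fold. Genes used as markers of other marrow cells were read too. All 10 markers of megakaryocytes and platelets were lower, and their signals summed to 9886, 1962 and 961 at 0, 24 and 72 h. Of 13 neutrophil and precursor markers 4 were lower and 0 higher, with a summed signal of 21736, 14840.0 and 1692 at the same times. Markers of stromal cells and osteoblasts had 1 higher of 12 measured, with sums of 2689.5, 3081 and 9269. Of 6 endothelial markers 2 were lower, of 5 dendritic cell markers 2 were lower and 1 higher, and of 5 B cell and 6 T and NK cell markers 1 each was lower. Of 3 erythroid markers and 1 mast cell marker none reached 2-fold. Whether such cells were present, and their part in the results, was not tested. In a bulk sample fewer cells of a type and less RNA per cell cannot be told apart.

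The nucleolus, where ribosomal RNA is made and assembled with protein, had the largest share of genes higher among the 81 lists examined. Of 56 ribosome assembly genes, 43 (76.8%) were higher and 0 lower. Their median difference was 1.38 on the log2 scale, against 0.12 for all genes, and medians of lists below are on that scale too. Nop56, a core protein of the particles that guide ribosomal RNA methylation, had signals of 175, 1079 and 377 at 0, 24 and 72 h, and was 6.17-fold higher. Nolc1, a phosphoprotein that travels with those particles, went from 97.4 at 0 h to 547 at 24 h and 164 at 72 h (5.62-fold higher), and its other probe sets gave log2 differences of 1.85 and 2.35. Nop16 had signals of 114, 622 and 162 at 0, 24 and 72 h (5.47-fold), and Rrp12, which helps pre-ribosomes leave the nucleus, of 33.8, 168 and 66.2 at 0, 24 and 72 h (4.97-fold). In each of these the 24 h array stood above both others. The call of Rrp12 was lost when the floor was raised to the 60th percentile. Npm1, nucleophosmin, was 2.41-fold higher (1859 to 4477). Among the other higher members were Bop1 (4.70-fold) and Fbl, the methyltransferase fibrillarin (3.63-fold). The lowest member, Heatr1, had a log2 difference of 0.29. The probe sets of Nip7 disagreed, with log2 differences of 1.15 and -1.25.

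Fewer genes of the polymerases behind ribosomal and transfer RNA reached 2-fold. Of 19 genes of RNA polymerases I and III, 6 were higher and 0 lower (median 0.53). The polymerase I subunit Polr1e went from 36.5 at 0 h to 159.8 at 24 h and 43.1 at 72 h (4.38-fold) and Polr1b from 33.8 at 0 h to 135 at 24 h and 58.8 at 72 h (3.99-fold). Polr1d, a subunit that polymerases I and III share, was 3.21-fold higher (577 to 1855), with a log2 difference of 0.43 by its other probe set. Rrn3, the factor that recruits polymerase I to its promoter, was 2.79-fold higher and stayed there at 72 h (56.0, 157 and 157). The calls of Polr1e, Polr1b and Rrn3 were lost when the floor was raised to the 60th percentile, where 3 genes of the list were higher.

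Among the enzymes and factors of translation itself the differences were smaller. Of 18 cytosolic tRNA synthetases, 5 were higher and 0 lower (median 0.65, and 3 higher after either quantile normalization or trimmed mean scaling), led by those for lysine (Kars, 300.4 to 785, 2.61-fold), tyrosine (Yars, 2.55-fold), histidine (Hars, 2.39-fold) and threonine (Tars, 2.17-fold). Of 47 translation factors, 10 were higher and 0 lower (median 0.53). After quantile normalization 6 were higher and 1 lower (median 0.29), and after trimmed mean scaling 5 and 1 (median 0.33), where 850 of 8450 and 775 of 8487 of all measured genes were higher. Eef1e1, a scaffold protein of the multi-synthetase complex, had signals of 239, 989 and 539 at 0, 24 and 72 h (4.14-fold). Eif6, which keeps the large ribosomal subunit from joining too early, was 3.15-fold higher (661 to 2081), the release factor Gspt1 2.65-fold and the exchange factor subunit Eif2b5 2.62-fold. The elongation factor Eef1a1 differed by a factor of 1.21 (9452 to 11459).

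Myc, the transcription factor best known for driving ribosome building, had signals of 85.7, 575 and 209 at 0, 24 and 72 h and was 6.71-fold higher. Myc and its partner Max bind the E-box CACGTG, as do other bHLH factors, so the promoters of the ribosome assembly genes were searched for it. The windows were those of RefSeq on build GRCm38.p6, from 250 bases before to 50 after each start site, and 6899 of the 8439 measured genes matched one. The E-box, a palindrome that reads alike on both strands, was present in 12 of 47 ribosome assembly windows (25.5%), in 12.1% of the windows of all measured genes, in 121 of 931 windows of genes higher, in 71 of 631 (11.3%) of genes lower, and in 7.15% of the 32851 windows of the table. Other lists with many genes higher lay on both sides of the share of all measured genes. Below it were mitochondrial ribosomal proteins, with 5 of 65 windows (7.69%), and purine and pyrimidine synthesis, with 2 of 20. Above it were mitochondrial import and folding, with 5 of 32 windows (15.6%), and the polyamine and methionine genes, with 2 of 11 (18.2%). Of the ribosome assembly genes that were higher, 9 of 36 windows held the E-box, a share near the 25.5% of the whole list. The 121 of 931 windows of all genes higher likewise lay near the 12.1% of all measured genes. Whether the element goes with the rise was not tested. The 9 stretches below come from those 9 windows and show where the element sits. Each is 30 bases, 5′ to 3′ on the gene's strand, with the E-box in capitals.
Nle1: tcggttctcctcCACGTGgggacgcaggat
Tsr1: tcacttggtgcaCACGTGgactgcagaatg
Nop2: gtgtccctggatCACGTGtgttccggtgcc
Mybbp1a: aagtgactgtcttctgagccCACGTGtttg
Wdr43: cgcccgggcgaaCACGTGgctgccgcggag
Pno1: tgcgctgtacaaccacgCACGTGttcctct
Utp20: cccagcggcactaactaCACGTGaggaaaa
Imp4: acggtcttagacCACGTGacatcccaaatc
Ltv1: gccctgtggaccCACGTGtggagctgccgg

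Their positions are chr11:82908355-82908384 on the minus strand for Nle1, chr11:74898092-74898121 on the plus strand for Tsr1, chr6:125131811-125131840 (plus) for Nop2, chr11:72441347-72441376 (plus) for Mybbp1a and chr17:71616220-71616249 (plus) for Wdr43. Those of the others are chr11:17211540-17211569 (minus) for Pno1, chr10:88826765-88826794 (minus) for Utp20, chr1:34439696-34439725 (plus) for Imp4 and chr10:13193092-13193121 (minus) for Ltv1. In 7 of the 9 the element begins within 50 bases after the start site, from 18 bases in Wdr43 to 41 bases in Mybbp1a, and in Nop2 and Imp4 it begins at positions -60 and -121, before the start site. The 9 genes were higher by 3.65-fold for Nle1 (43.6 to 159), 3.49-fold for Tsr1, 3.34-fold for Nop2, the ribosomal RNA methyltransferase, 3.06-fold for Mybbp1a, 2.95-fold for Wdr43, 2.88-fold for Pno1, 2.62-fold for Utp20, 2.03-fold for Imp4 and 2.004-fold for Ltv1. The calls of Imp4 and Ltv1 were lost after quantile normalization and after trimmed mean scaling, and that of Imp4 also when probe sets were averaged. That of Nle1 was lost when the floor was raised to the 60th percentile. A match of letters is not a binding site, and no binding was measured here.

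Other motifs were counted in the same windows on both strands, and none of them contains the letters CACGTG. The interferon response core, which is GAAA and GAAA with any 2 bases between them, was in 3.65% of windows of genes higher, 6.81% of genes lower and 4.03% of all measured genes (3.44% of all windows). The PU.1 type element GAGGAAGT was in 2.69%, 5.71% and 3.70% (3.20% of all windows), and in 6 of 47 ribosome assembly windows (12.8%). The AP-1 element TGANTCA was in 6.55%, 9.19% and 6.83% (7.81%), and in 0 of the 47. The NRF1 element, GCGCA followed directly by TGCGC, was in 2.47% of genes higher, 1.43% of genes lower and 2.36% of all measured genes (0.971%), and this element and the interferon response core were each in 1 of the 47.

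Many genes that make the building blocks for growth were higher as well. Of 9 measured genes that make serine, glycine, one-carbon units or asparagine, 6 were higher and 0 lower (median 1.31). The cytosolic serine hydroxymethyltransferase Shmt1, which moves a carbon from serine to folate, had signals of 42.2, 231 and 45.3 at 0, 24 and 72 h (5.48-fold), and the mitochondrial Shmt2 of 190.0, 671 and 336 at 0, 24 and 72 h (3.53-fold). Psat1, the aminotransferase of serine synthesis, was 3.04-fold higher (179.6 to 545) and Gcsh, of the glycine cleavage system, 2.85-fold higher. Phgdh and Psph, the enzymes before and after Psat1, stayed within 2-fold (log2 differences of 0.08 and 0.31). Asns, asparagine synthetase, was 2.44-fold higher and higher again at 72 h (174, 424 and 791).

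Of 21 genes of purine and pyrimidine synthesis, 9 were higher and 0 lower (median 0.94). Dut, which removes dUTP, went from 67.9 at 0 h to 331 at 24 h and 114 at 72 h (4.88-fold). Cad, the enzyme that opens pyrimidine synthesis, went from 97.7 at 0 h to 353 at 24 h and 111 at 72 h (3.61-fold), and its other probe set gave a log2 difference of 2.09. Dctpp1, another cleaner of the nucleotide pool, was 3.68-fold higher, and Adssl1, of adenylate synthesis, was 3.52-fold higher and remained high at 72 h (246, 866 and 779). For Dut, Cad and Dctpp1 the 72 h signal lay closer to that of 0 h than to that of 24 h. Of the polyamine and methionine genes, 6 of 13 were higher and 0 lower (median 0.69). Ornithine decarboxylase, Odc1, had signals of 222, 1095 and 636 at 0, 24 and 72 h (4.94-fold) and spermidine synthase, Srm, of 265, 1446 and 716 at 0, 24 and 72 h (5.45-fold). Dhps, which uses spermidine to make hypusine, was 2.69-fold higher and Mtap, which salvages methionine, 2.57-fold higher, while the antizyme Oaz1 that holds back Odc1 differed by a factor of 1.02 (4678 to 4786).

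Amino acid carriers split in direction, with 3 higher and 2 lower of 11 measured. The glutamine transporter Slc1a5 went from 105 at 0 h to 809 at 24 h and 1057 at 72 h (7.73-fold higher). Slc7a6 and the large neutral amino acid transporter Slc7a5 were 2.61-fold and 2.20-fold higher. Slc7a7 (505, 114 and 141) and Slc7a8 (241, 78.1 and 57.8), which pair with the same heavy chain, were 4.43-fold and 3.08-fold lower. That heavy chain, Slc3a2, had a log2 difference of -0.85 (1467, 813 and 1829). The list's median of -0.05 has no settled sign, being 0.68 on the deposited scale, 0.03 after hybridization control scaling and 0.53 with probe sets averaged.

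**Figure D2:**
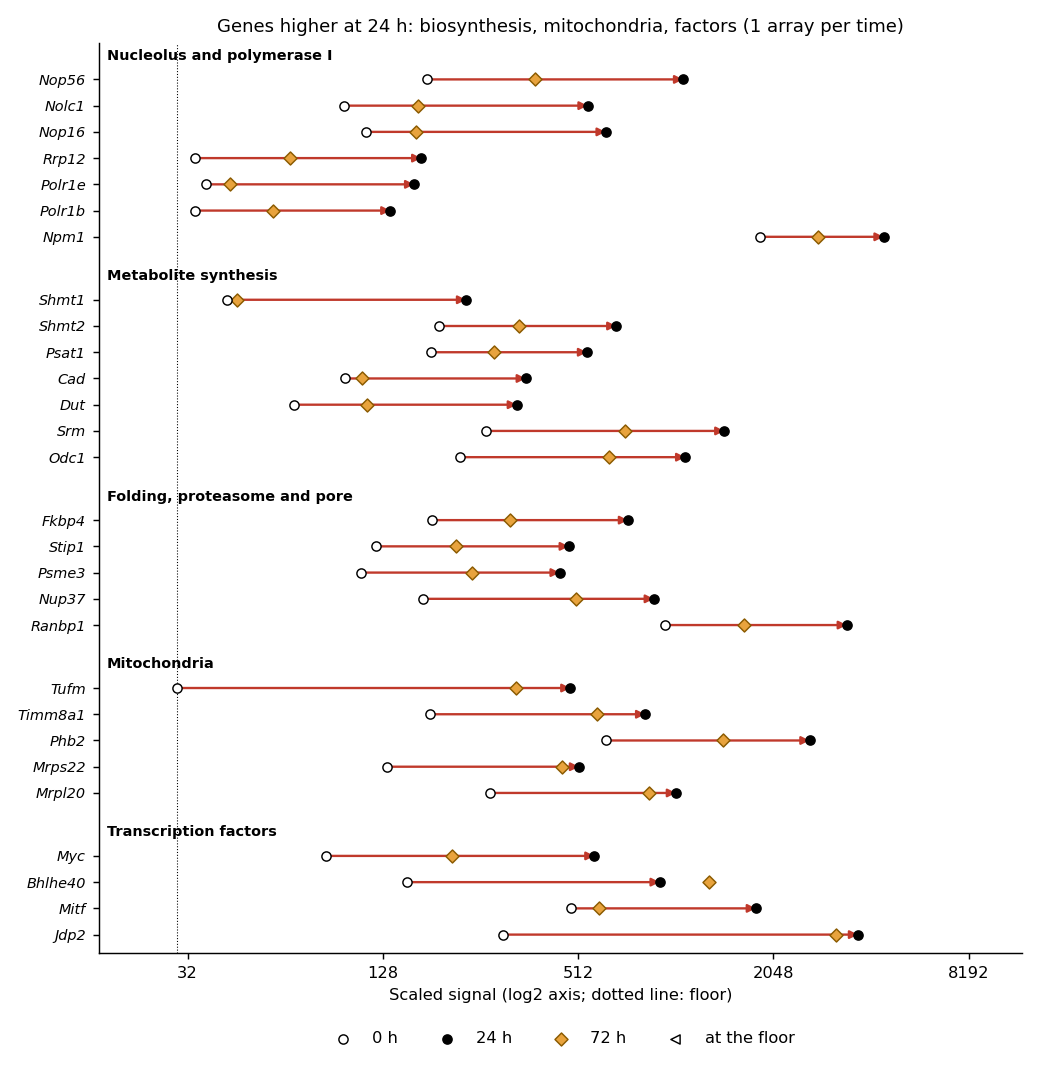
Scaled signals (log2 axis) of 28 genes higher at 24 h, grouped by role, with an open circle for 0 h, a filled circle for 24 h and a diamond for 72 h, 1 array each; the red arrow runs from 0 h to 24 h and the dotted line is the floor at 29.6. In 27 of the 28 the 24 h signal is the highest of the 3, and Bhlhe40 (152, 913 and 1299) is the exception.

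Genes of protein folding, protein breakdown, nuclear transport and splicing were higher in part, and several of their counts depended on the scaling. Of 26 cytosolic chaperones, 14 were higher and 0 lower (median 1.06), with 9 after quantile normalization and 7 after trimmed mean scaling. Partners of Hsp90 led them, Fkbp4 with signals of 181, 729 and 314 at 0, 24 and 72 h (4.03-fold, a call lost when its probe sets were averaged) and Stip1 with 122, 479 and 215 at 0, 24 and 72 h (3.94-fold), followed by the chaperonin subunits Cct3 (3.38-fold) and Cct6a (2.78-fold). Hspa8, the constitutive Hsp70, differed by a factor of 1.09 (6969.8 to 7610.4). The folding genes of the endoplasmic reticulum showed no such change, with 0 higher and 1 lower of 43 and a median of 0.09 that was -0.16 after quantile normalization and -0.11 after trimmed mean scaling. Herpud1, of the pathway that removes misfolded proteins, was the member lower (629, 148 and 482, 4.24-fold), and Hspa5, the main chaperone there, had a log2 difference of -0.29.

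Of 41 proteasome genes, 14 were higher and 0 lower (median 0.68). The count was 5 after quantile normalization and 5 after trimmed mean scaling, a share near that of all measured genes under those scalings. Psme3, a nuclear activator of the proteasome, went from 109.6 at 0 h to 449 at 24 h and 240.1 at 72 h (4.10-fold) and Psmd10, an assembly chaperone, from 198 at 0 h to 634 at 24 h and 609 at 72 h (3.21-fold). The subunit genes Psmb2 and Psmb7 were 2.69-fold and 2.63-fold higher. Of 48 genes of nuclear pores and transport, 18 were higher and 0 lower (median 0.90). The pore proteins Nup37 (169.8, 876 and 504), Nup43 (46.3, 189 and 72.0) and Ndc1 were 5.16-fold, 4.08-fold and 3.88-fold higher, and Ranbp1, which helps recycle Ran, 3.64-fold higher (947 to 3449). In splicing, 16 of 39 core snRNP proteins were higher (median 0.84, with 7 after quantile normalization and 8 after trimmed mean scaling) and 4 of 35 SR and hnRNP proteins (median 0.51), with 0 lower in both lists. Lsm2 (77.3 to 286, 3.70-fold), Prpf31 (3.27-fold), Snrnp27 (2.92-fold) and Sf3a1 (2.63-fold) led the first list, and Srsf10 (3.07-fold) and Hnrnpr (2.32-fold) are among those higher in the second.

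Nuclear genes that build mitochondria had many members higher. Of 74 mitochondrial ribosomal proteins, 36 were higher and 0 lower (median 0.94). Mrps22 went from 132 at 0 h to 515 at 24 h and 455 at 72 h (3.91-fold), Mrpl20 from 274 at 0 h to 1025 at 24 h and 846 at 72 h (3.75-fold), and Mrpl50 was 3.52-fold higher; these stayed near their 24 h signals at 72 h. Of 36 genes of protein import and folding, 19 were higher and 0 lower (median 1.06), with 12 after quantile normalization and 11 after trimmed mean scaling. The small carrier of the intermembrane space Timm8a1 had signals of 179, 824 and 584 at 0, 24 and 72 h (4.60-fold), prohibitin 2, Phb2, of 626, 2646 and 1426 at 0, 24 and 72 h (4.23-fold), the inner membrane channel subunit Timm17a was 3.34-fold higher and the chaperonin Hspd1 3.08-fold higher (1275 to 3929). Of 22 factors for the mitochondrial genome and its translation, 5 were higher and 0 lower (median 0.51). They include the DNA-binding protein Ssbp1 (3.02-fold), the coactivator Ppargc1b (154, 427 and 655, 2.78-fold) and the elongation factors Gfm1 (2.76-fold) and Tufm (29.7, 484 and 329.8, 16.3-fold), whose 0 h signal lay just above the floor and whose call was lost when its probe sets were averaged. Tfam, which packages the mitochondrial genome, stayed within 2-fold (0.60).

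Of 28 measured mitochondrial carriers, 5 were higher and 1 lower (median 0.29), against 3 and 3 after quantile normalization and 2 and 3 after trimmed mean scaling. The aspartate and glutamate carrier Slc25a13 had signals of 41.3, 141 and 196 at 0, 24 and 72 h (3.42-fold) and the ADP/ATP carrier Slc25a5 of 2591, 5729.6 and 6895 at 0, 24 and 72 h (2.21-fold), and Slc25a45 was 2.32-fold lower. In fatty acid oxidation 1 of 24 genes was higher and 0 lower (median 0.24). That gene was Hsd17b10 (318 to 1038, 3.27-fold), which also has a part in mitochondrial tRNA processing, and Cpt1a, the entry step of the pathway, had a log2 difference of -0.73. In fatty acid synthesis and desaturation, 1 was higher and 2 lower of 18, namely Fads3 (2.28-fold higher) and Acss2 (146 to 38.2, 3.82-fold) and Scd2 (952 to 448, 2.12-fold) lower.

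Genes of DNA repair and of chromatin were examined next. Of 53 DNA repair genes, 19 were higher and 0 lower (median 0.69). The base excision enzyme Apex1 went from 514 at 0 h to 2159 at 24 h and 863 at 72 h (4.20-fold), the flap endonuclease Fen1, which also works at replication forks, from 394 at 0 h to 1644 at 24 h and 339 at 72 h (4.17-fold), and Rad51ap1 and the checkpoint kinase Chek1 were 4.10-fold and 3.88-fold higher. Fen1 and Rad51ap1 were lower at 72 h than at 0 h (Rad51ap1, 59.5, 244 and 43.2). Of 82 chromatin modifiers, 12 were higher and 3 lower (median 0.33), and the 14.6% higher lie near the 13.2% of all measured genes. After trimmed mean scaling 9 were higher and 7 lower (median 0.13). The arginine methyltransferase Prmt1 (368, 1466 and 641, 3.98-fold), the maintenance methylation factor Uhrf1 (159.5, 564 and 122.6, 3.54-fold), its remodelling partner Hells (3.35-fold) and the histone acetyltransferase Hat1 (3.30-fold) were higher, as was Ezh2, the Polycomb methyltransferase (195, 530.3 and 156, 2.72-fold). Its paralog Ezh1 went the other way (236.0, 108 and 127, 2.19-fold lower), as did the deacetylase Sirt2 (391 to 109, 3.59-fold) and Kmt2e (2.70-fold). Of 10 measured histone genes, H1f10 (2.21-fold) and H2ax (2.07-fold) were higher and H2aw (2.92-fold) lower, and both higher calls were lost after trimmed mean scaling.

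Transcription factors moved in both directions. Of 39 bZIP factors, the family of AP-1, C/EBP and ATF, 3 were higher and 14 lower, a share of 35.9% against 9.22% of all genes; their median of -0.45 was 0.13 on the deposited scale. Beside Jdp2 (299.7, 3734 and 3192), Creb3l2 (98.5 to 334, 3.39-fold) and Fosl2 (2.03-fold) were higher. The other measured probe set of Jdp2 stayed within 2-fold, and the call of Jdp2 was lost without probe sets that match several transcripts. Atf3, an early stress factor, went from 289.6 to under the floor and was at least 9.80-fold lower. Cebpd (741, 159.7 and 148, 4.64-fold) and Ddit3, a factor of the stress of the endoplasmic reticulum (120.1, 35.9 and 129.5, 3.34-fold), were lower, as were the other C/EBP genes Cebpa (1578 to 485, 3.25-fold) and Cebpb (1427 to 452, 3.16-fold). Fos itself stayed within 2-fold (3198, 4055 and 1988).

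Of 17 Kruppel-like and EGR factors 3 were lower and 0 higher. Egr1, an immediate early gene, had signals of 942, 112 and 152 at 0, 24 and 72 h (8.38-fold lower), and Klf2, which restrains inflammation in myeloid cells, of 384, 36.5 and 34.8 at 0, 24 and 72 h (10.5-fold lower), while Klf6 was 2.13-fold lower. Of 25 nuclear receptors and coregulators 3 were higher and 2 lower. The retinoid receptors differed, with Rxra at signals of 437, 107 and 115 at 0, 24 and 72 h (4.10-fold lower, and -0.43 on the log2 scale by its other probe set) and Rxrb at signals of 227, 463 and 231 at 0, 24 and 72 h (2.04-fold higher, a call lost after quantile normalization and trimmed mean scaling). The orphan receptor Nr4a1, another immediate early gene, was 3.34-fold lower (140.2 to 42.0) and Nr1d1 2.23-fold higher.

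Of 34 bHLH and Myc network factors, 4 were higher and 5 lower. Beside Myc, the clock-linked repressor Bhlhe40 (152 to 913, 6.03-fold), Mitf (485, 1808 and 593, 3.73-fold by its brightest probe set and a log2 difference of 0.61 by the other) and Tfap4 (33.9 to 88.5, 2.61-fold) were higher. Mxd4 (197, 56.0 and 44.7, 3.52-fold) and Mnt (494, 215 and 188, 2.30-fold), which compete with Myc for Max, were lower, and Max had a log2 difference of -0.64. The blood cell factors Lyl1 (845, 132 and 39.3, 6.39-fold) and Tal1 (2.11-fold) were lower, and Tal1 is also expressed in megakaryocytes, whose markers were lower as given above. In a list of ETS, RUNX, GATA, IRF and homeobox factors, 3 were higher and 12 lower of 54 measured (median -0.24, and 0.28 on the deposited scale). The list also holds Prdm1, Nfatc1 and Mef2c, which belong to none of these families. Zeb1 (48.8, 182 and 218, 3.72-fold) and Prdm1 (204 to 629) were higher along with Nfatc1 (368 to 1742). Mef2c (326, 59.4 and under the floor, 5.49-fold), Fli1 (278, 74.3 and 34.7, 3.74-fold) and the homeobox factor Hlx (173 to under the floor, at least 5.86-fold) were lower along with Irf8 (1184 to 179). Of 16 clock genes, 2 were higher (Bhlhe40 and Nr1d1) and 3 lower, Dbp (270.3, 72.4 and 123.0, 3.73-fold), Per3 (2.20-fold) and Nfil3, which went from 59.2 to under the floor (at least 2.003-fold).

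A list built around the dual specificity phosphatases, many of which damp MAP kinase signals, had more genes lower than higher. Of its 32 measured genes, 9 were lower and 1 higher (median -0.17, and 0.38 on the deposited scale). The list also holds Ier3, Zfp36 and Btg2, which are not phosphatases, so the count is not one of MAP kinase dampers alone. Ier3 went from 1522 at 0 h to 149 at 24 h and 297 at 72 h (10.2-fold), the mRNA decay factor Zfp36 from 969 at 0 h to 175 at 24 h and 207 at 72 h (5.54-fold), the phosphatase Dusp1 from 544 at 0 h to 122 at 24 h and 320.4 at 72 h (4.45-fold) and Btg2 from 423 at 0 h to 98.3 at 24 h and 56.8 at 72 h (4.31-fold). Dusp9, a cytoplasmic phosphatase of ERK, stood against them, from under the floor at 0 h to 193 at 24 h and 41.4 at 72 h (at least 6.52-fold higher), and its 2 other probe sets gave 2.56 and 2.77 on the log2 scale.

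Nutrient sensing and autophagy genes had 0 higher and 7 lower of 43 (median -0.20, and 0.49 on the deposited scale). The sestrins, which restrain mTOR complex 1 when amino acids are scarce, were lower in Sesn1 (2156, 312 and 233, 6.91-fold) and Sesn2 (112, 33.4 and 47.2, 3.35-fold), and Sesn3 had a log2 difference of -0.84. The autophagosome protein Gabarapl1 was 3.09-fold lower (750.2 to 243) and the kinase Ulk2 2.20-fold lower. Mtor, Mlst8 and Rheb of the mTOR pathway stayed within 2-fold. Of 28 apoptosis genes 2 were higher and 2 lower. The mitochondrial proteins Endog (75.5, 363 and 337, 4.80-fold) and Cycs (867 to 3730.0) were higher, and the inhibitors Cflar (303, 118 and 202, 2.57-fold) and Bcl2l1 (203, 95.7 and 124, 2.12-fold) lower.

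RANK belongs to the TNF receptor family, whose members lay in both directions. Of 26 TNF ligands, receptors and TRAFs measured, 5 were higher and 6 lower, against 11 and 0 on the deposited scale. Traf1 (under the floor, 275 and 168), Tnfrsf9 (under the floor, 108 and 216, at least 3.65-fold higher) and the TWEAK receptor Tnfrsf12a (48.5, 198 and 235.5, 4.09-fold) were higher, and the ligand Tnfsf13b, BAFF, was at least 2.12-fold higher and under the floor again at 72 h. Both TNF receptors were lower, Tnfrsf1b (779, 324 and 141, 2.40-fold) and Tnfrsf1a (1028, 469.6 and 454, 2.19-fold), as were Tnfrsf21 (3.00-fold) and Tnfrsf13b (2.16-fold). Of 15 NF-kB subunits and inhibitors, 3 were higher and 1 lower. Nfkb2, the subunit of the slower, alternative pathway, had signals of 219, 633 and 264 at 0, 24 and 72 h (2.89-fold), Tnip1 was 2.44-fold higher and Rel at least 2.05-fold higher, while the atypical inhibitor Nfkbiz was 4.16-fold lower (149.8, 36.0 and 38.3). Rela and Relb stayed within 2-fold (-0.33 and -0.18). Of 20 JAK, STAT and SOCS genes, 1 was higher, Socs2 (40.6, 140.2 and 257, 3.45-fold) and 4 were lower, led by Stat2 (90.7 to 37.2, 2.44-fold) and Socs6 (2.17-fold).

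Defences against peroxide and electrophiles were lower in 11 and higher in 4 of 46 measured genes. Heme oxygenase, Hmox1, went from 1724 at 0 h to 168 at 24 h and 288 at 72 h, the membrane glutathione transferase Mgst1 from 2389 at 0 h to 333 at 24 h and 268 at 72 h (7.17-fold), Gclm, a subunit of the enzyme that starts glutathione synthesis, from 1912 at 0 h to 296 at 24 h and 358 at 72 h (6.47-fold) and the secreted peroxidase Gpx3 from 896 at 0 h to 154 at 24 h and 306 at 72 h (5.82-fold). Nfe2l2, the factor known to drive many of these genes, was 2.24-fold lower (1146, 513 and 478). The genes higher were the glutathione transferases Gstt1 (34.99, 127.7 and 32.9, 3.65-fold) and Gstt2 (3.28-fold), Mgst3 (167, 468 and 1128, 2.80-fold) and the mitochondrial peroxiredoxin Prdx3 (444 to 1129, 2.54-fold). The list's median of 0.02 was -0.05 after quantile normalization and -0.15 after trimmed mean scaling.

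Among cytochrome P450, aldo-keto and aldehyde enzymes, 4 were higher and 6 lower of 37 measured. Cyp2s1 went from 54.1 at 0 h to 860.3 at 24 h and 2116 at 72 h, Akr1b8 from 71.6 at 0 h to 242 at 24 h and 323 at 72 h (3.38-fold) and Akr1c18, which breaks down progesterone, from under the floor at 0 h to 103 at 24 h and 2403 at 72 h (at least 3.48-fold higher). Cyp27a1, the sterol hydroxylase, went from 400.1 at 0 h to 32.2 at 24 h and 30.5 at 72 h, Cbr2 from 511.9 to under the floor and Akr1b10 was 4.40-fold lower, a call lost when its probe sets were averaged or the floor was raised to the 60th percentile.

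Enzymes and receptors of prostaglandins and leukotrienes were lower in 11 and higher in 1 of 26 measured (median -0.63). The prostaglandin E2 receptor Ptger2 went from 243 at 0 h to 31.3 at 24 h and under the floor at 72 h (7.77-fold), and Ptger4 and Ptger3 were lower too (2.79-fold and at least 3.32-fold). Thromboxane synthase, Tbxas1, had signals of 1138, 182 and 101 at 0, 24 and 72 h (6.27-fold), and platelets, whose markers were lower as given above, make it as well. The platelet-activating factor hydrolase Pla2g7 went from 3338 at 0 h to 564 at 24 h and 1448 at 72 h (5.92-fold), the prostaglandin D synthase Hpgds from 167 at 0 h to 35.2 at 24 h and 84.0 at 72 h (4.75-fold) and Alox5ap, which leukotriene synthesis needs, from 3548 at 0 h to 1188 at 24 h and 504 at 72 h (2.99-fold). The gene higher was Ptges2, a prostaglandin E synthase (54.4, 144 and 133, 2.65-fold).

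The list of lipoprotein, lipid efflux and fatty acid binding genes also takes in ABC family proteins that do not move lipids. It had 12 genes lower and 6 higher of 47 measured (median -0.31, and 0.37 on the deposited scale). Apoc2 (962, 149 and 159.8, 6.47-fold), the scavenger receptor Cd36 (342, 61.2 and 58.7, 5.58-fold), the endocytic receptor Lrp1 (1642, 305 and 251, 5.38-fold) and the exporter Abcc3 (5.22-fold) were lower, as was the cholesterol exporter Abca1 (2210.5 to 755, 2.93-fold). Lipoprotein lipase, Lpl, which Apoc2 activates, was higher (893, 3767 and 2583, 4.22-fold), with the phospholipid exporter Abcb4 (104, 449 and 948, 4.33-fold), Abca2 (under the floor to 127.6, at least 4.32-fold) and Fabp7 (under the floor to 125, at least 4.22-fold). Apoe had a log2 difference of -0.67. Of 25 sphingolipid genes 2 were higher and 4 lower, with Galc, the galactosylceramidase, 3.83-fold lower (254 to 66.4), Cerk, the ceramide kinase, 2.60-fold lower and Sgms1, a sphingomyelin synthase, 2.22-fold higher.

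Among solute carriers other than those above, 15 of 94 measured were higher and 9 lower, against 12 and 15 after trimmed mean scaling. The serotonin transporter Slc6a4 was high at 24 h alone, with signals of 43.6, 811 and 76.1 at 0, 24 and 72 h. The lactate transporter Slc16a1 had the same shape (143, 604 and 156, 4.21-fold). The proton exchanger Slc9b2 (105, 483 and 2519, 4.60-fold) and the creatine transporter Slc6a8 (290.1, 1031 and 1843, 3.56-fold) were higher still at 72 h, and the fatty acid transporter Slc27a1 was 4.01-fold higher. Slc19a1 and Slc46a1, which carry folates, were 3.07-fold higher (128.0 to 392.3) and 3.49-fold higher (35.8 to 125), the latter a call lost when the floor was raised to the 60th percentile. The iron exporter Slc40a1 went from 1115 at 0 h to 82.2 at 24 h and 127 at 72 h, the lysosomal carriers Slc46a3 and Slc15a3 from 349 to 40.2 (8.69-fold) and 476 to 60.6 (7.85-fold), and the metal carrier of phagosomes Slc11a1 from 2243 at 0 h to 505 at 24 h and 315 at 72 h (4.44-fold). The glucose transporter Slc2a3 was lower as well (415, 77.9 and 30.2, 5.33-fold, and -2.43 on the log2 scale by its other measured probe set, but -0.93 with all its probe sets averaged).

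Ion channels had 4 higher and 9 lower of 41 measured (median -0.33, and 0.28 on the deposited scale). The calcium-activated potassium channel Kcnn4 was high at 24 h (258, 2361 and 504, 9.16-fold), and its other probe set gave a log2 difference of 3.94. Of the calcium release channels of the endoplasmic reticulum, Itpr3 went from 81.5 at 0 h to 503 at 24 h and 313 at 72 h (6.17-fold higher) and Itpr2 from 153 at 0 h to 43.7 at 24 h and 34.1 at 72 h (3.50-fold lower, a call lost when its probe sets were averaged or the floor was raised to the 60th percentile). Mcoln2 (7.06-fold), the ATP-gated P2rx4 (1248, 262 and 189, 4.76-fold) and Trpv4 (133 to under the floor, at least 4.51-fold) were lower.

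G protein-coupled receptors, chemokine receptors aside, were lower in 16 and higher in 5 of 43 measured (median -0.69). The proton-sensing Gpr65 went from 366 at 0 h to 39.7 at 24 h and under the floor at 72 h (9.23-fold), the endothelin receptor Ednrb from 211 at 0 h to 32.03 at 24 h and 33.7 at 72 h (6.58-fold) and Gpr34 from 197 at 0 h to 31.96 at 24 h and under the floor at 72 h (6.15-fold). Of the receptors for extracellular nucleotides in the list, P2ry6 was 4.65-fold lower (2095, 451 and 139) and P2ry12, which platelets also carry, 4.52-fold lower, while P2ry2 and P2ry14 stayed within 2-fold (-0.22 and 0.09). Calcrl, which forms the receptor for calcitonin gene-related peptide and adrenomedullin, was high at 24 h (36.9, 189 and 59.1, 5.12-fold, with 0.71 on the log2 scale by its other probe set). The serotonin receptor Htr2b (36.9, 102 and 126, 2.77-fold) and Gpr137b (461, 1279 and 5006, 2.78-fold) were higher at both later times. Of 31 RGS proteins and G protein subunits, 2 were higher, led by Gnb4 (122, 461 and 621, 3.77-fold), and 5 lower, led by Gng2 (545, 85.2 and 75.9, 6.400-fold) and Rgs18 (179.7 to under the floor, at least 6.08-fold), a gene known from platelets. Of 22 cyclic nucleotide enzymes, 3 were higher and 2 lower, and the phosphodiesterase Pde8a was 3.99-fold higher (374, 1494 and 1427).

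Regulators of small GTPases and tyrosine phosphorylation had members in both directions. Of 55 exchange factors and GTPase-activating proteins, 7 were higher and 10 lower. Dock5, an activator of Rac, had signals of 132, 878 and 713 at 0, 24 and 72 h (6.63-fold), Tiam1, another, of 80.8, 222 and 110.3 at 0, 24 and 72 h (2.75-fold), and Arhgap10 went from under the floor to 108 (at least 3.65-fold). Fgd2 (307, 48.1 and 38.6, 6.38-fold) and Arhgap4 (4.81-fold) were lower, as was Rasgrp2 (122 to under the floor, at least 4.11-fold), an activator of Rap1 in platelets. Of 19 tyrosine phosphatases, Ptpn22 (92.9, 458 and 729, 4.93-fold) and Ptpn12 (2.11-fold) were higher and Ptpn18 (1317, 239.6 and 577, 5.50-fold), Ptprj (3.11-fold) and Ptpn1 (2.54-fold) lower.

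**Figure D3:**
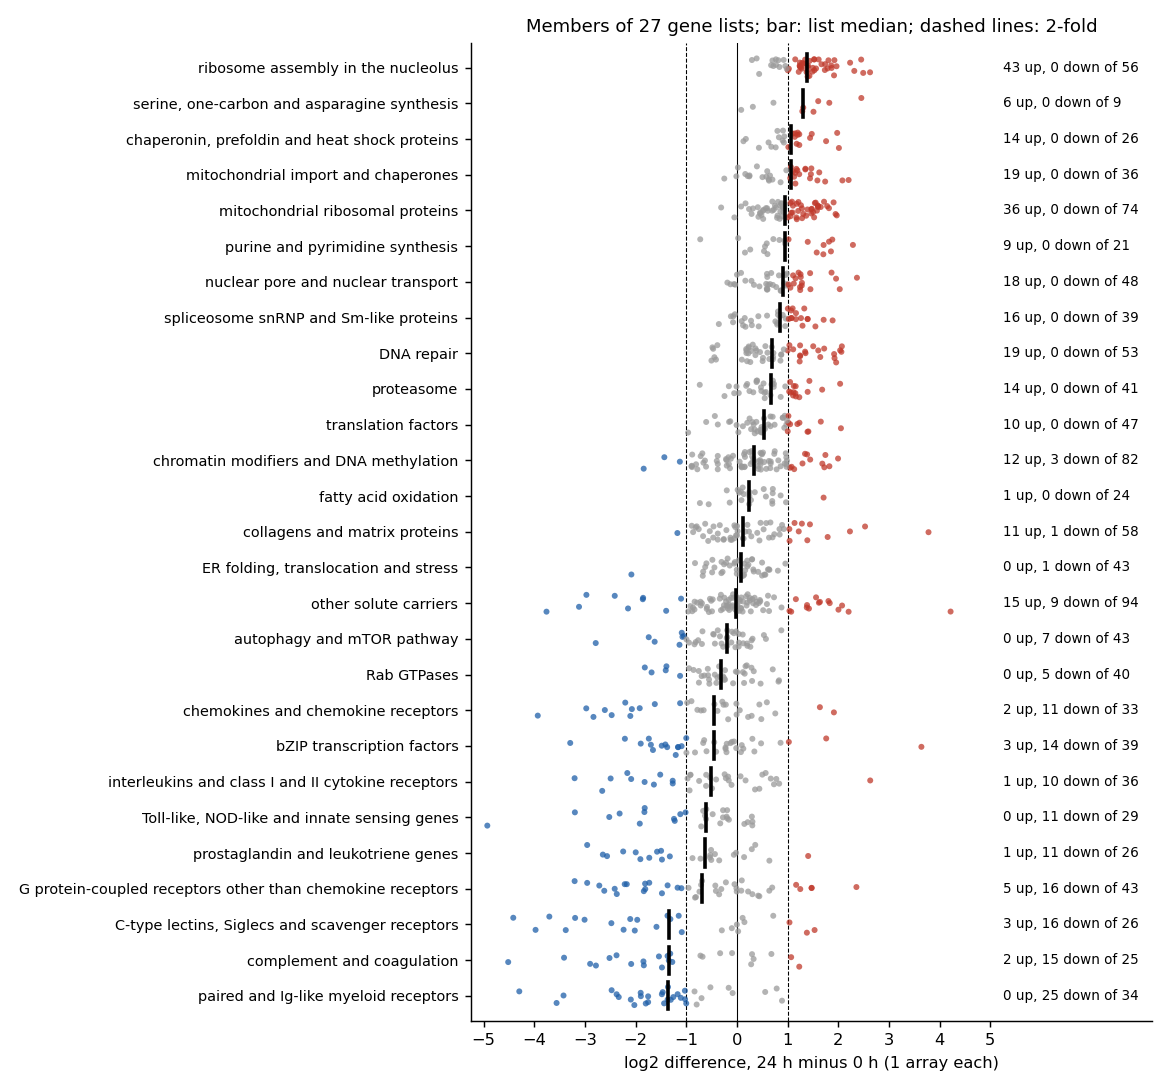
The log2 difference, 24 h minus 0 h, of each measured member of 27 gene lists, with a black bar at the list's median, red for members at least 2-fold higher, blue for members at least 2-fold lower and counts at the right; 1 array per time, points spread vertically to be seen. The nucleolar list lies furthest right (median 1.38) and the list of paired and Ig-like receptors furthest left (-1.37); on the deposited scale the medians of the solute carrier, autophagy, Rab, bZIP, chemokine, cytokine receptor and Toll-like lists lie above 0, after hybridization control scaling so does that of the solute carrier list, after quantile normalization that of the endoplasmic reticulum list lies below it, and after trimmed mean scaling so do those of the endoplasmic reticulum and matrix lists.

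Surface receptors of innate immunity were lower in large part. Of 34 paired and Ig-like myeloid receptors, 25 (73.5%) were lower and 0 higher (median -1.37). Fcrls went from 3796 at 0 h to 193 at 24 h and 63.4 at 72 h, the IgG receptors Fcgr1 and Fcgr3 from 747 at 0 h to 63.2 at 24 h and 64.6 at 72 h and from 2677 at 0 h to 249.3 at 24 h and 264 at 72 h, and the inhibitory receptor Cd300a was 5.56-fold lower (444 to 79.8). Of the Ms4a family, Ms4a6d (2828 to 661, 4.28-fold) and Ms4a6b (1858 to 456, 4.08-fold) were lower. The adaptor Tyrobp, on which several activating receptors depend, differed by a factor of 1.12 (5297, 4724 and 6436), and Trem2 and Sirpa stayed within 2-fold (-0.70 and -0.80).

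Of 26 lectins, Siglecs and scavenger receptors, 16 were lower and 3 higher (median -1.34). Mrc1 (3911, 183 and 109), Clec10a (798, 50.7 and 32.5, 15.7-fold), Cd5l (762, 58.5 and 204, 13.04-fold) and Marco (308 to under the floor, at least 10.4-fold) were lower by the largest factors. Stab1, which clears modified lipoproteins, was 9.16-fold lower (3591 to 391.9), and Clec4n, dectin-2, went from 4202 at 0 h to 975 at 24 h and 1052 at 72 h (4.31-fold). Of the receptor kinases that bind Gas6, Mertk went from 659 at 0 h to 139.6 at 24 h and 75.2 at 72 h (4.72-fold lower) and Axl from 237 at 0 h to 685 at 24 h and 292 at 72 h (2.89-fold higher, but 0.99 on the log2 scale with its probe sets averaged), while Gas6 itself went from 4060.0 at 0 h to 177 at 24 h and 482 at 72 h. Clec5a, a receptor that signals through Tyrobp, was 2.60-fold higher at 24 h (257, 669 and 196), and Clec4a2 2.05-fold higher. Msr1 stayed within 2-fold (-0.10).

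In complement and coagulation, 15 of 25 measured genes were lower and 2 higher (median -1.35). The 3 chains of C1q moved together, C1qa from 4199 at 0 h to 609 at 24 h and 720.4 at 72 h (6.89-fold), C1qb from 3683 at 0 h to 345 at 24 h and 455 at 72 h (10.7-fold) and C1qc from 3474 at 0 h to 466 at 24 h and 625 at 72 h (7.46-fold). F13a1, a clotting factor of monocytes and platelets, went from 5267 at 0 h to 1013 at 24 h and 253 at 72 h (5.200-fold), and von Willebrand factor, Vwf, made by endothelium and megakaryocytes, from 332 at 0 h to 57.9 at 24 h and 50.8 at 72 h (5.72-fold). All 10 megakaryocyte and platelet markers were lower beside them. Cd59a, which blocks the membrane attack complex, was 2.10-fold higher (102, 214 and 486).

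Of 29 Toll-like, NOD-like and other sensing genes, 11 were lower and 0 higher (median -0.61, and 0.07 on the deposited scale). Ikbke, a kinase of interferon induction, went from 1051 at 0 h to 34.5 at 24 h and under the floor at 72 h, and Ly86, a partner of the Toll-like protein Cd180, from 2372 at 0 h to 258 at 24 h and 123.1 at 72 h (9.19-fold). Tlr7 (388, 67.5 and 46.4, 5.74-fold) and Tlr1 (182 to 36.6, 4.98-fold) were lower, although the other Tlr7 probe sets gave log2 differences of -0.68 and -0.46. Myd88, Casp1 and the inflammasome adaptor Pycard stayed within 2-fold (-0.71, -0.48 and 0.21).

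Of 36 interleukins and class I and II cytokine receptors, 10 were lower and 1 higher (median -0.51, and 0.16 on the deposited scale). The interleukin 10 receptor chain Il10ra went from 273 to under the floor, the G-CSF receptor Csf3r from 647 at 0 h to 102 at 24 h and 41.4 at 72 h (6.33-fold), Il13ra1 from 167 at 0 h to under the floor at 24 h and 239 at 72 h (at least 5.64-fold) and Il6ra from 320.2 at 0 h to 71.4 at 24 h and 34.5 at 72 h (4.49-fold). Each of Il10ra, Il13ra1 and Il6ra had a probe set within 2-fold. The cytokine Il11 was higher, from under the floor at 0 h to 183 at 24 h and 254 at 72 h. Of 33 chemokines and receptors, 11 were lower and 2 higher (median -0.45, and 0.04 on the deposited scale). Ccl6 went from 793 at 0 h to 51.9 at 24 h and 96.1 at 72 h, Ccl3 from 233 to under the floor, the neutrophil attractant Cxcl2 from 211 to under the floor (at least 7.13-fold) and the platelet chemokine Pf4 from 6085 at 0 h to 997 at 24 h and 548 at 72 h (6.10-fold). Cxcr6 (under the floor to 111, at least 3.76-fold) and Cxcl14 (116, 361 and 155, 3.11-fold) were higher, and Ccl9, which osteoclasts make, differed by a factor of 1.36 (2629.7, 3570.1 and 5101).

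**Figure D4:**
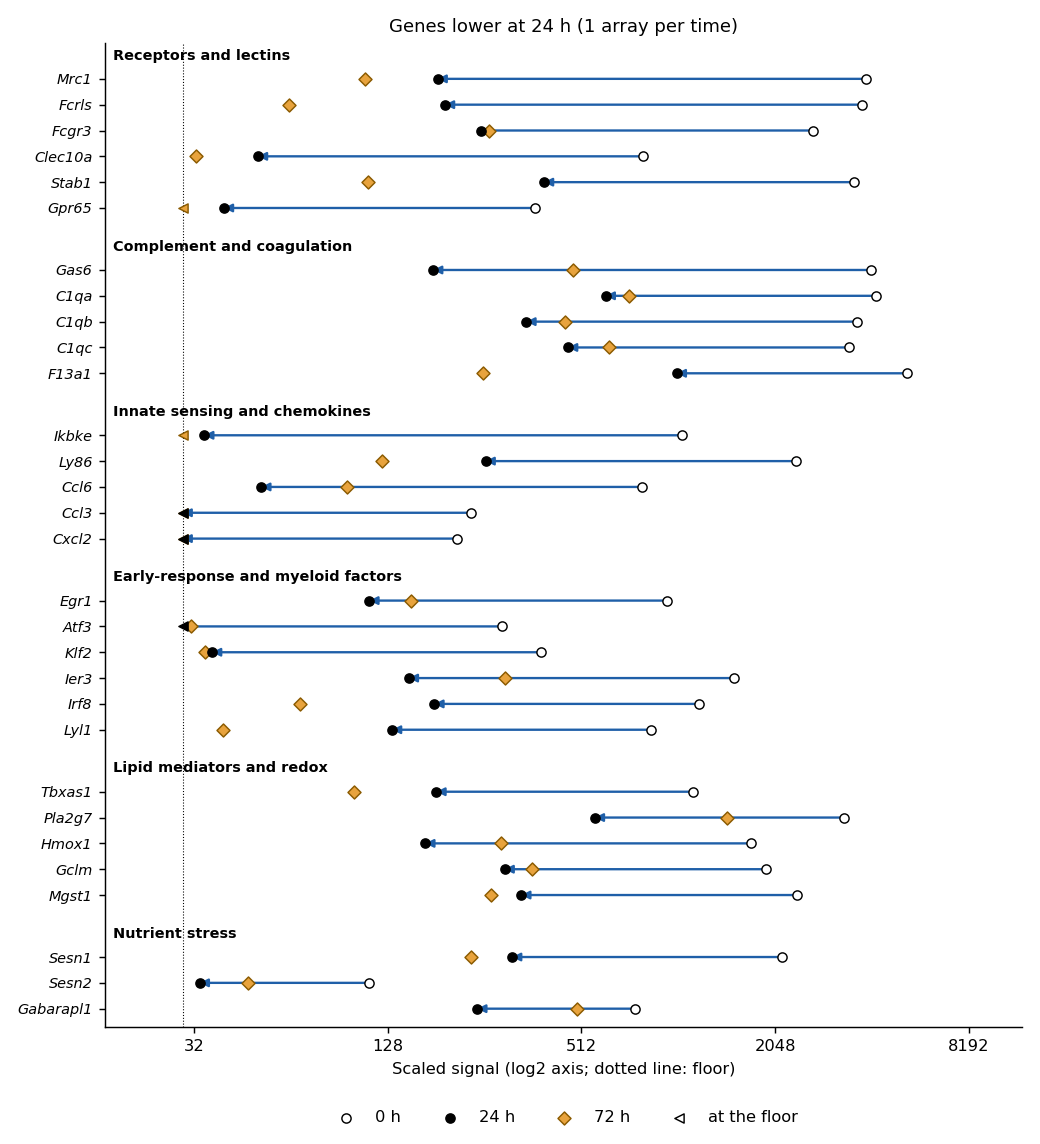
Scaled signals (log2 axis) of 30 genes lower at 24 h, grouped by role, with an open circle for 0 h, a filled circle for 24 h and a diamond for 72 h, 1 array each; triangles mark values under the floor of 29.6, drawn at the floor, and the blue arrow runs from 0 h to 24 h. In all 30 the 0 h signal is the highest of the 3, and at 72 h some were lower again (Fcrls, 63.4) and some partly back (Pla2g7, 1448).

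Matrix proteins and the sugars they carry came next. Of 58 measured collagens and other matrix proteins, 11 were higher and 1 lower (median 0.12, and -0.08 after trimmed mean scaling). Proteoglycans that carry heparan sulfate were among those higher, namely Sdc1 (111, 1519.6 and 2516), Col18a1 (78.2, 451 and 106, 5.76-fold) and Gpc1 (69.8, 327 and 167, 4.69-fold). For Hspg2, another of them, the brightest probe set was 2.71-fold higher, but the mean of its probe sets gave a log2 difference of -0.38. Of enzymes that build sugar chains and their sulfates, 8 were higher and 5 lower of 54, against 6 and 7 after quantile normalization and 4 and 8 after trimmed mean scaling. Ext1, which extends the heparan sulfate chain (205, 544 and 1068, 2.66-fold), and Hs2st1, which sulfates it (297 to 953, 3.21-fold), were higher, as were Chst7 (33.2, 135 and 34.8, 4.05-fold) and Galnt7 (2.83-fold), while Xylt2, which starts such chains, was 3.14-fold lower (143 to 45.7). B3gnt8 (3.32-fold), St6gal1 (2.97-fold) and St8sia4 (2.62-fold) were lower, with another probe set of each of the latter pair near 0 on the log2 scale. Periostin, Postn (169, 372 and 930.2, 2.20-fold), was higher at 24 h and higher again at 72 h, and Thbs1 was 2.26-fold lower (419.9, 186 and 788). Col1a2, a fibroblast collagen, had signals of 913, 989 and 3469 at 0, 24 and 72 h, a factor of 1.08 at 24 h, and 1 of 12 stromal markers was higher at 24 h.

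Of 28 integrins and Ig-like adhesion molecules, 7 were higher and 6 lower. The hyaluronan receptor Cd44 went from 619.7 at 0 h to 2472 at 24 h and 2009 at 72 h (3.99-fold), the integrin chains Itga5 and Itgav from 146 at 0 h to 484 at 24 h and 414 at 72 h (3.32-fold) and from 1174 at 0 h to 3633 at 24 h and 4197 at 72 h (3.10-fold), and L1cam was high at 24 h (71.4, 269 and 62.9, 3.77-fold). Vcam1 (248.6 to under the floor), Itga6 (1433, 490.4 and 150.5, 2.92-fold) and the platelet integrin Itga2b (704, 125 and 64.4, 5.64-fold) were lower. In the list of tetraspanins and caveolae, 4 were higher and 7 lower of 26. The caveolins were higher, Cav1 with signals of 175, 4171 and 1506 at 0, 24 and 72 h and Cav2 with 256, 2125 and 1826 at 0, 24 and 72 h (8.29-fold, and 0.08 on the log2 scale by its other probe set). The coat protein Cavin2 went from 171 to under the floor (at least 5.80-fold) and Cavin1, which caveolae need, had a log2 difference of -0.27. The flotillin Flot1 was 5.14-fold lower (662, 129 and 109). Of 9 measured cadherins and catenins 1 was higher, Pcdh7 (under the floor, 849 and 353).

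Among metalloproteinases Mmp9 was higher (175 to 665) and 3 of 22 were lower, Mmp8, a neutrophil collagenase (747, 74.2 and 39.02, 10.1-fold), Mmp13 (186, 42.7 and 233, 4.35-fold) and Adam19 (2.13-fold). Of protease inhibitors and serine proteases 4 were higher and 3 lower of 33. Cd109 (32.02, 294 and 1008), Serpinb8 (82.0, 304 and 340.5, 3.71-fold) and Htra1 (47.8 to 168, 3.51-fold) were higher, and Slpi, an inhibitor of neutrophil elastase, lower (636, 110.2 and 102, 5.78-fold).

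Guidance and growth signals also split within families. Of 23 semaphorins, plexins, ephrins and receptors, 4 were higher and 5 lower. The neuropilins, co-receptors for semaphorins and VEGF, moved apart, Nrp1 from 1370.3 at 0 h to 115 at 24 h and 210.3 at 72 h (11.9-fold lower, with its other probe sets at -4.27 and -3.35 on the log2 scale) and Nrp2 from 365 at 0 h to 1589.6 at 24 h and 937 at 72 h (4.36-fold higher). The plexins did too, Plxnc1 going from 429.5 at 0 h to 81.4 at 24 h and 44.1 at 72 h (5.28-fold lower) and Plxnd1 from 647 at 0 h to 1664 at 24 h and 1066 at 72 h (2.57-fold higher). Of 29 growth factors and binding proteins, 5 were higher and 5 lower. Vegfc (under the floor, 296 and 71.3, at least 10.01-fold higher) and Pgf (under the floor, 117 and under the floor, at least 3.95-fold higher), both ligands of VEGF receptors, were higher, and the PDGF chains Pdgfa (154, 632 and 250.2, 4.11-fold) and Pdgfb (247, 1134 and 1167, 4.60-fold) were higher, against Pdgfc, which was 2.31-fold lower (187, 80.7 and 248). Igf1 went from 1968 at 0 h to 134.2 at 24 h and 187 at 72 h and was 14.7-fold lower.

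Of 38 genes of the TGF-beta and BMP pathway, 5 were higher and 5 lower, against 4 and 8 after trimmed mean scaling and 12 and 0 on the deposited scale. The ligand Tgfb2 (37.5, 130.4 and 52.8, 3.47-fold), its binding protein Ltbp1 (46.6, 159 and 98.00, 3.41-fold), the inhibitory Smad7 (48.8, 206 and 142, 4.22-fold) and the receptor Acvr1 (2.58-fold) were higher. The receptor Tgfbr2 (1507, 693 and 2256, 2.18-fold), Acvr1b (2.20-fold) and the decoy receptor Bambi (2.59-fold) were lower. In the Wnt, Notch and Hedgehog pathways, 2 were higher and 1 lower of 29, with Notch1 at signals of 1237, 225 and 99.4 at 0, 24 and 72 h (5.49-fold lower), Notch4 at signals of under the floor, 127 and 31.3 at 0, 24 and 72 h (at least 4.30-fold higher) and Wnt7b 2.77-fold higher.

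The cell's skeleton and its traffic had a few genes each past 2-fold. Of 47 actin genes, 6 were higher and 4 lower, against 4 and 4 after trimmed mean scaling. The severing protein Scin went from 33.99 at 0 h to 462 at 24 h and 754 at 72 h, the bundling protein Pls3 from 95.1 at 0 h to 409.9 at 24 h and 426 at 72 h (4.31-fold) and Tagln2 was 2.85-fold higher; Evl, which helps filaments grow, went from 216 at 0 h to 35.5 at 24 h and 71.9 at 72 h (6.08-fold lower) and the focal adhesion protein Zyx from 640.4 at 0 h to 178 at 24 h and 292 at 72 h (3.59-fold lower). Actb differed by a factor of 1.10. Of 20 myosins, Myo1d (102, 432 and 2739, 4.24-fold) and Myo10 (160.2 to 463, 2.89-fold) were among the 3 higher and 1 was lower. Of 34 microtubule genes, 3 were higher and 3 lower, and the tubulins themselves diverged, Tubb6 going from 312 at 0 h to 1322 at 24 h and 2669 at 72 h (4.24-fold higher), Tubb2a from 336 at 0 h to 112 at 24 h and 205 at 72 h (3.00-fold lower) and Tuba1a from 1234 at 0 h to 499.7 at 24 h and 1507 at 72 h (2.47-fold lower).

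Of 40 measured Rab GTPases, which direct vesicles, 5 were lower and 0 higher (median -0.31, and 0.38 on the deposited scale). Rab27b, a regulator of secretion (104 to under the floor, at least 3.53-fold), Rab7b (429.6, 133 and 76.0, 3.22-fold) and Rab33b (2.63-fold) were among the lower. Of 37 SNAREs and synaptotagmins 1 was higher, Ykt6 (478, 1248 and 1436, 2.61-fold), and 4 lower, led by Stx2 (419 to 151, 2.78-fold). Of 16 annexins and S100 proteins, 5 were higher and 1 lower, with a median of 0.07 that was -0.14 after quantile normalization and -0.13 after trimmed mean scaling. S100a10, which pairs with Anxa2, went from 1348 at 0 h to 5194 at 24 h and 2683 at 72 h (3.85-fold), Anxa1 from 1773 at 0 h to 6422 at 24 h and 6588 at 72 h (3.62-fold) and S100a4 from 3141 at 0 h to 8696 at 24 h and 5133 at 72 h (2.77-fold), and Anxa3, which neutrophils express at a high level, from 2079.5 at 0 h to 353 at 24 h and 1016 at 72 h (5.89-fold lower). The neutrophil proteins S100a8 and S100a9 stayed within 2-fold (-0.38 and -0.35).

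A few of the day's largest differences lay outside these families. Bbs9, of the transport complex of cilia, went from 51.6 at 0 h to 680.0 at 24 h and 198 at 72 h (13.2-fold), the GTPase-activating protein Srgap3 from 33.2 at 0 h to 348 at 24 h and 316 at 72 h (10.5-fold), the membrane protein Emp2 from 48.6 at 0 h to 503 at 24 h and 210.0 at 72 h (10.4-fold) and Rai14 from 206 at 0 h to 1892 at 24 h and 1698 at 72 h (9.19-fold). For Srgap3, whose 0 h signal lay near the floor, the other measured probe set stayed within 2-fold. The adenylate kinase Ak1 was 9.55-fold higher (239, 2279.5 and 1522), the nuclear lamin Lmna 8.70-fold higher (380.0, 3307 and 1860.5), the small GTPase Rhou 8.41-fold higher and Mcrip2 7.78-fold higher. In the other direction were the secreted ribonuclease Rnase4 (1506, 85.8 and 124), the acute phase proteins Saa3 (1049.9, 76.2 and 29.96, 13.8-fold) and haptoglobin, Hp (492, 36.7 and under the floor, 13.4-fold), and Cd93, a receptor of myeloid and endothelial cells (1790.2, 162 and 109, 11.04-fold). Haptoglobin is also a product of neutrophils, whose summed marker signal was lower at 24 h as given above.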

How the data were processed

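RNA of 3 cultures was hybridised to 1 Affymetrix mouse array each, and the authors deposited 1 linear signal intensity per probe set, made with MAS5 per the submitters' processing notes; its version is not given in the sources used here. Of 22690 probe sets, 64 controls were set aside. The 22626 others had their log2 intensities centred on each array's median, as computed here from the deposited intensities. A symbol came from the platform annotation for 20380 probe sets with 1 symbol; 691 had several and 1555 none, and these name no gene here. Each gene was read from its probe set with the highest mean over the 3 arrays. Signals under the floor (40th percentile) were set to it, and such a fold is a lower bound ("at least"). No test was run, since each time has 1 array; the steps were tested on simulated data. With arrays, their number limits the precision. Python 3.11.15, numpy 2.4.6, pandas 2.3.3 and matplotlib 3.10.9 were used. Alternatives were other floors, probe set rules and scalings.

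The genes, the 81 gene lists and the 5 motifs were chosen with earlier results of these data known. Genes named were drawn from the 20 largest differences in each direction, the 6 largest from or to the floor in each direction, in each list up to 4 members past 2-fold in each direction and the brightest one, and genes whose probe sets opposed each other. Not every gene that this rule picks is named. Named outside that rule, after their values were seen, were Abca1, Alox5ap, Anxa2, Asns, Bop1, Casp1, Cavin1, Cd180, Cd68, Cebpa, Cebpb, Clcn7, Cpt1a, Csf1r, Ezh2, F13a1, Fbl, Heatr1, Hspg2, Imp4, Itgb3, Ltv1, Max, Mertk, Mlst8, Ms4a6b, Ms4a6d, Msr1, Mtor, Mybbp1a, Myd88, Nfe2l2, Nle1, Nop2, Oscar, P2ry12, P2ry14, P2ry2, P2ry6, Phgdh, Pno1, Psph, Ptger3, Ptger4, Rela, Relb, Rheb, S100a8, Sesn3, Sirpa, Slc11a1, Slc19a1, Slc46a1, Slc6a8, Stab1, Tcirg1, Tfam, Trem2, Tsr1, Utp20 and Wdr43. Calcr, under the floor, was also named so.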

Additional observations from a re-analysis of the deposited data

Results flagged for a closer look

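A control probe set that is in none of the comparisons showed a signal above its 0 h level. The control for the 3′ end of the transferrin receptor transcript, the protein that brings iron into the cell, had a log2 difference of 0.99 at 24 h, just short of 2-fold, with scaled signals of 91.3 at 0 h, 181 at 24 h and 1612 at 72 h. It was not tested, as each time has 1 array. No group has enough samples to look for a sample far from the others.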

How the results depend on the processing

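The counts of genes past 2-fold depended on the floor and the scaling. With no floor 2017 genes were higher and 1887 lower, with a floor at the 20th percentile 1307 were lower, and on the deposited scale, without centring, 3302 were higher and 314 lower. The other alternatives gave counts within 1.5 times the main ones, from 775 to 1482 higher and from 523 to 1062 lower. Of 365 calls of genes named in the text, 239 held under all 10 alternatives and 126 were lost under at least 1, 102 of these under one other than the deposited scale. The difference took the opposite sign for Hspg2 (-0.38), Nip7 (-0.057) and Zfp207 (-0.35) when probe sets were averaged, and for Rpf2 (-1.21), Tardbp (-1.06) and Zfp207 (-1.47) without probe sets that match several transcripts. The medians of 29 of the 81 lists kept their sign under all 10 alternatives, and 37 turned on the deposited scale. No paired analysis was possible because each time has 1 array, and for the same reason no replicate could be left out. Low signals limit the rest: 82 of the genes higher and 111 of the genes lower have a bound and not a fold.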

Other observations

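Probe sets that name no single gene also differed between the arrays. Of 477 measured probe sets that carry several symbols, 68 passed 2-fold upward and 34 downward. Of 687 measured probe sets without a symbol, 79 were higher and 62 lower.

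For 5 genes, probe sets of the same symbol lay past 2-fold in opposite directions, and the symbol alone gives no direction for them. The aspartic protease gene Ctse had log2 differences of 1.14 and -2.67, the ribosome assembly gene Rpf2 of 1.76 and -1.21, and Zfp207 of 1.48 and -1.47. The RNA-binding protein gene Tardbp had 1.55 and -1.06, and Nip7 is given above. Which transcript each probe set reads was not examined here.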
